A study of Mus musculus with 2 samples.

Results

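The Mir290 to Mir295 cluster of mouse chromosome 7 was followed in small RNA from the embryonic liver at day 11.5. Its members were the counted genes whose Ensembl identifier carries one of these symbols in GENCODE M21, which gave 7 of 1973 counted microRNA genes: Mir290a, Mir291a, Mir292, Mir291b, Mir293, Mir294 and Mir295. Mir290b and Mir292b, which M21 places on the opposite strand over Mir290a and Mir292, had no row of their own. The samples were 2 libraries of RNA of fewer than 30 nucleotides from livers of B6NCrl mouse embryos, each a pool of both sexes. Replicate 1 came from 109 embryos, per the labels, and the pool size of replicate 2 was not stated. No treatment or mutation was applied, and both libraries belong to 1 group. The question open to these data is therefore how much of each cluster gene the liver held at this stage, and how far the libraries differed.

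The cluster encodes microRNAs best known from mouse embryonic stem cells and the early embryo, where they are among the most abundant microRNAs and fall as cells differentiate. Several of its mature products carry the bases AAGUGC in the seed, the stretch near the 5′ end that pairs with target messages. In mouse embryonic stem cells, such products are known to speed the passage from G1 to S phase by repressing inhibitors of the cell cycle, among them Cdkn1a. A precursor hairpin can yield a product from each arm, named 5p and 3p. The counts used here are per gene and do not separate the arms.

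The mature products are shown because they sort the 7 genes into seed groups. Capitals mark the seed, bases 2 to 8 from the 5′ end, and the sequences are those of RefSeq on GRCm38.p6. The table held 13 mature sequences from these genes, and the grouping rests on those. The product miR-292a-3p is named only, so Mir292 is placed by its 5p seed. Mir294, Mir295 and Mir291a share the 3p seed AAGUGCU.
miR-294-3p: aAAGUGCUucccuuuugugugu
miR-295-3p: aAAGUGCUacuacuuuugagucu
miR-291a-3p: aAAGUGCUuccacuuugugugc
The 3p products of Mir291b and Mir290a keep AAGUGC and differ from that group at the last seed base, while the 3p product of Mir293 starts further along and has no AAGUGC.
miR-291b-3p: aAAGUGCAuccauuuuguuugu
miR-290a-3p: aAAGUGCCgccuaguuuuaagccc
miR-293-3p: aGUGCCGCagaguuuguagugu
On the 5p arm Mir290a, Mir292 and Mir293 share the seed CUCAAAC, and Mir291a and Mir291b share AUCAAAG.
miR-292a-5p: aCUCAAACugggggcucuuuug
miR-293-5p: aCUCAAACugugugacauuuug
miR-291a-5p: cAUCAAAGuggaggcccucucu
miR-291b-5p: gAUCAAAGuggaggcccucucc
Counted from 1 at the 5′ end, miR-291a-3p and miR-294-3p were the same at 19 of 22 positions and differed by A12C, C13U and C22U, all outside the seed.

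The 7 precursors lie on the plus strand of mm10 within 2216 bp, at chr7:3218626-3220841. Mir290a spans 3218626 to 3218708, Mir291a 3218919 to 3219000, Mir292 3219189 to 3219270 and Mir291b 3219482 to 3219560. After the widest gap, 782 bp, come Mir293 at 3220343 to 3220422, Mir294 at 3220641 to 3220724 and Mir295 at 3220773 to 3220841. The 6 genes from Mir291a to Mir295 lie inside the annotated 3′ untranslated region of Nlrp12, a gene of innate immunity that runs on the opposite strand. M21 places no other gene than Mir290b over Mir290a. On the strand opposite to the members, the deposited counts were 0 at 7 of 7 genes in both libraries. A count of 0 allows up to 3 counts, or 0.897 and 1.89 CPM in replicates 1 and 2, where CPM means counts per 1000000 reads assigned to a microRNA gene on its own strand.

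Replicate 1 held 3344673 assigned reads and replicate 2 held 1584499. By mean CPM, Mir126a of endothelium ranked 1 and the hepatocyte microRNA Mir122 ranked 4 among all counted genes, with 57443 and 80051 CPM for Mir126a and 30679 and 34487 CPM for Mir122 in replicates 1 and 2. As shares of assigned counts, hepatocyte markers held 3.30 and 3.69%, the endothelial marker 5.74 and 8.01%, erythroid markers 0.795 and 1.10% and let-7 genes 3.40 and 3.29%. Markers of trophoblast and placenta held 0.471 and 0.560%, with 3 of 7 counted genes detected (at least 10 counts in both libraries), and 7 of 7 have 20 or more consecutive bases in common with some other counted gene, so their level is uncertain. Markers of striated muscle held 0.0714 and 0.0626%. Of 6 counted muscle genes, 3 had 0 counts in both libraries and 3 share such a stretch with another counted gene. Neural markers held 0.000329% in replicate 1 and 0 counts in replicate 2, which allows up to 0.000189%. All 5 counted neural genes share such stretches too, as do 2 of 4 hepatocyte genes and 3 of 7 counted let-7 genes. The part of any of these cell types in the values below was not tested.

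The cluster held a small share of the liver's microRNA counts, and most of that share came from 3 of its genes. Its 7 genes together had 2287 counts in replicate 1 and 882 in replicate 2. That is 0.0684% of the assigned counts of replicate 1 (95% exact Clopper-Pearson interval 0.0656 to 0.0712) and 0.0557% in replicate 2 (interval 0.0521 to 0.0595), a mean of 0.0620 ± 0.0090% (SD, n = 2). The intervals, which cover counting error only, do not overlap between the libraries. Nor do those of the Mir302 and Mir367 genes compared below, at 0.437 to 0.452% in replicate 1 and 0.387 to 0.406% in replicate 2. Of the 7 genes, 5 reached 10 counts in each library, and Mir290a and Mir295 fell below that limit in replicate 2. In RNA from whole livers, fewer cells of a type and less RNA per cell cannot be told apart.

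Mir294, known in mouse embryonic stem cells for promoting the G1 to S transition, had 855 and 330 counts, or 256 and 208 CPM in replicates 1 and 2. Its mean of 232 ± 33.5 CPM (SD, n = 2) ranked 178 among all 1973 counted genes. Mir293, whose 3p product has a seed of its own, had 659 and 347 counts, or 197 and 219 CPM, with a mean of 208 ± 15.5 CPM (SD, n = 2). The ranges of these 2 genes overlapped and their order turned, with Mir294 higher in replicate 1 and Mir293 higher in replicate 2. Mir292 had 522 and 123 counts, or 156 and 77.6 CPM, with a mean of 117 ± 55.5 CPM (SD, n = 2). In both libraries it stood below Mir293 and Mir294 and above the other 4 genes.

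The remaining members were rarer by a wide margin. Mir291a, which shares its 3p seed with Mir294, had 110 and 38 counts, or 32.9 and 24.0 CPM (mean 28.4 ± 6.30, SD, n = 2). Mir291b had 52 and 32 counts, or 15.5 and 20.2 CPM (mean 17.9 ± 3.29, SD, n = 2). Their ranges did not overlap, so Mir291a stood above Mir291b in both libraries. The precursors of these 2 genes share a stretch of 20 bases, the only one of that length between members. Their 5p products were the same at 20 of 22 positions and differed by C1G and U22C. A read of the 5p arm that covers neither end matches both genes and falls in the class of reads mapping to several places, so their counts can be too low.

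Mir295, which has the same 3p seed as Mir294, had 69 counts in replicate 1 and 9 in replicate 2, or 20.6 CPM (95% exact Poisson interval 16.1 to 26.1) and 5.68 CPM (2.60 to 10.8). Mir290a, the first gene of the cluster, had 20 and 3 counts, or 5.98 CPM (3.65 to 9.24) and 1.89 CPM (0.390 to 5.53). The CPM range of Mir295 overlapped that of Mir291b above it and that of Mir290a below it. Mir295 was higher than Mir291b in replicate 1 and lower in replicate 2, so their order was not resolved. Mir290a was lower than both in each library, though its Poisson interval in replicate 2 overlapped that of Mir295. The highest mean, that of Mir294, was 58.9 times the lowest, that of Mir290a.

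**Figure D1:**
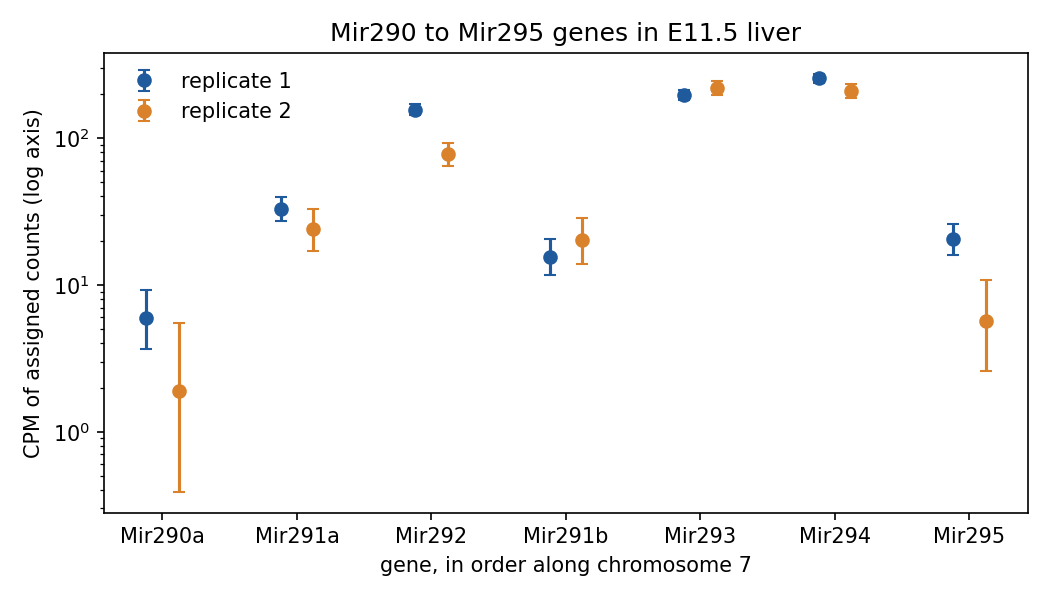
Level of each cluster gene in CPM on a log axis, in order along the chromosome, with replicate 1 left of replicate 2 and 95% exact Poisson intervals for counting error. Mir292, Mir293 and Mir294 lie between 77.6 and 256 CPM, and the other 4 genes between 1.89 and 32.9 CPM.

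Abundance did not follow the order of the genes along the chromosome. Mir294 and Mir295 are the closest pair, 48 bp apart, yet Mir294 was 12.4 times as abundant as Mir295 in replicate 1 and 36.7 times in replicate 2. Mir292 stands between 2 low genes: it was 4.75 and 3.24 times as abundant as Mir291a on one side, and 10.04 and 3.84 times as abundant as Mir291b on the other. Mir293 was 12.7 and 10.8 times as abundant as Mir291b, its neighbour across the 782 bp gap. Mir293 and Mir294, 218 bp apart, were the only neighbours whose order differed between the libraries. Each of these ratios was taken within a library and so does not depend on how the libraries were scaled.

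**Figure D2:**
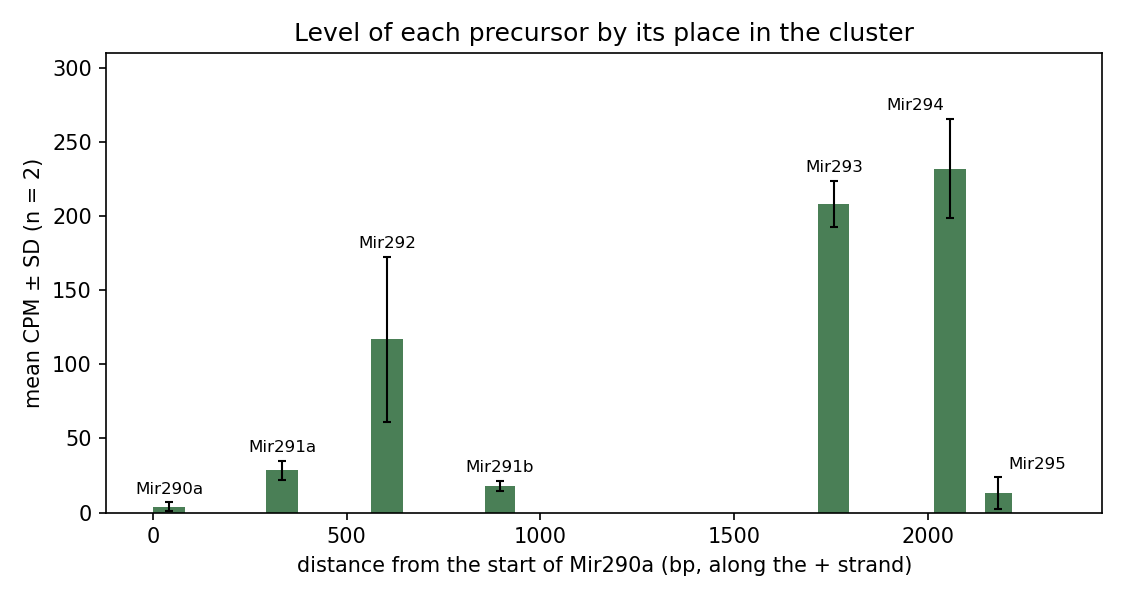
Mean CPM of each precursor with the SD over both libraries (n = 2), drawn to scale at its distance from the start of Mir290a in bp. The high bars at Mir292, Mir293 and Mir294 stand beside low bars at Mir291a, Mir291b and Mir295.

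Genes with the same seed differed widely in level in 2 of the 3 groups of shared seeds. These groups rest on the sequences held, which lack miR-292a-3p, so a 3p seed of Mir292 could not be placed. Among the 3 genes with the 3p seed AAGUGCU, Mir294 averaged 232 CPM, Mir291a 28.4 CPM and Mir295 13.2 CPM. The 3 genes together summed to 309 and 238 CPM in replicates 1 and 2. Among the 3 genes with the 5p seed CUCAAAC, Mir293 averaged 208 CPM, Mir292 117 CPM and Mir290a 3.94 CPM, for a sum of 359 and 299 CPM. Mir291a and Mir291b, which share the 5p seed AUCAAAG, lay closer together, with means of 28.4 and 17.9 CPM, a 1.59-fold difference. Since arms are not separated, a sum over genes is not the level of the products with that seed.

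The make-up of the cluster differed between the libraries beyond counting error at Mir292, Mir293 and Mir295. Mir294 made up 37.4% of the cluster's counts in replicate 1 (95% exact Clopper-Pearson interval 35.4 to 39.4) and 37.4% in replicate 2 (34.2 to 40.7). Mir293 made up 28.8% (27.0 to 30.7) in replicate 1 and 39.3% (36.1 to 42.7) in replicate 2. Mir292 made up 22.8% (21.1 to 24.6) in replicate 1 and 13.9% (11.7 to 16.4) in replicate 2. Mir295 made up 3.02% (2.35 to 3.80) in replicate 1 and 1.02% (0.468 to 1.93) in replicate 2. The intervals of Mir292, Mir293 and Mir295 do not overlap between the libraries, and those of the other 4 genes do. These intervals cover counting error only. In the exact binomial test described below, 49.1% of all 454 tested genes passed an adjusted p under 0.05 at any fold. Differences beyond counting error were thus common among all genes. That test takes counts over the whole library, not shares of the cluster, and in it Mir292, Mir294 and Mir295 passed and Mir293 did not. How often such intervals fail to overlap among other genes was not computed, so these 3 genes cannot be set apart. Mir293 was 1.26 times as abundant as Mir292 in replicate 1 and 2.82 times in replicate 2. Together Mir292, Mir293 and Mir294 held 89.0% of the cluster's counts in replicate 1 and 90.7% in replicate 2.

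**Figure D3:**
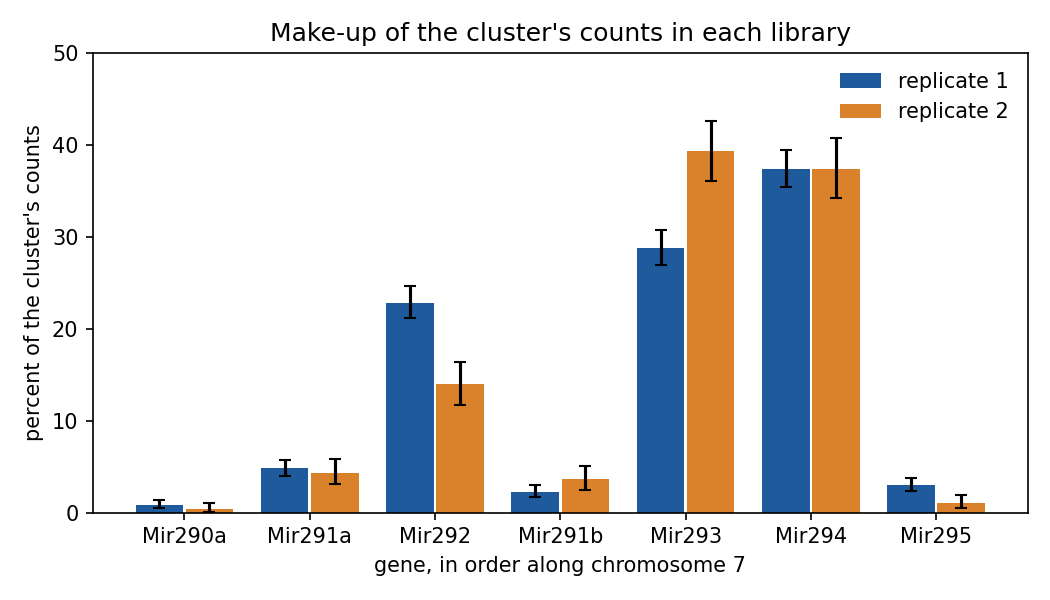
Percent of the cluster's counts held by each gene, with replicate 1 left of replicate 2 and 95% exact Clopper-Pearson intervals. Mir294 holds 37.4% in each library, Mir293 28.8 and 39.3%, and Mir292 22.8 and 13.9%, in replicates 1 and 2.

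Replicate 1 was also set against replicate 2 gene by gene in an exact binomial test, two-sided, over all genes with at least 10 summed counts. P-values were adjusted by Benjamini and Hochberg's method, and a call required both an adjusted p under 0.05 and a 2-fold or larger difference. This test knows counting noise only and compares 2 libraries, not conditions. Of 454 tested genes 33 were called (7.27%), 11 of them higher in replicate 1 (2.42%) and 22 higher in replicate 2 (4.85%). All 7 cluster genes entered the test and 1 was called. A single call among 7 genes does not set the cluster apart from that background.

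The called gene was Mir295, higher in replicate 1 with a log2 ratio of 1.73 (adjusted p = 0.000206, exact binomial test). It has 78 counts in all, and among the 169 tested genes with 10 to under 100 summed counts 18 were called (10.7%). With edgeR's exact test and an assumed biological coefficient of variation of 0.2 the call of Mir295 was lost, at an adjusted p of 0.303, while the other alternatives gave 0.000133 to 0.000896. Mir292 lay just inside the 2-fold limit with a log2 ratio of 0.94 (adjusted p = 1.62e-11, exact binomial test) and passed it at 1.00 when scaled by total assigned counts. Mir294 had a log2 ratio of 0.23 and Mir293 one of -0.22, with adjusted p-values of 0.0269 and 0.0546 in the exact binomial test. At an adjusted p under 0.05 with any fold, 3 of the 7 cluster genes and 49.1% of all tested genes passed.

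The log2 ratios of Mir290a, Mir291a and Mir291b were 1.41, 0.38 and -0.45, with adjusted p-values of 0.129, 0.252 and 0.295 in the exact binomial test. Over the 7 genes the median log2 ratio was 0.38, with 5 genes higher in replicate 1 and 2 higher in replicate 2. Over all tested genes the median was -0.01.

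**Figure D4:**
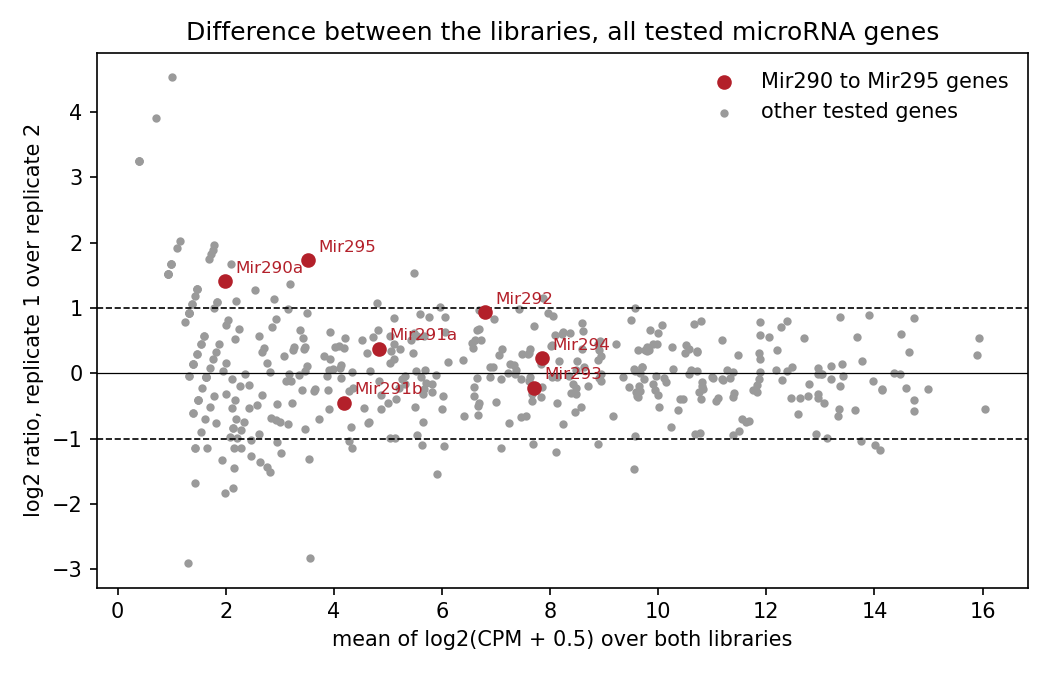
Log2 ratio of replicate 1 over replicate 2 against the mean of log2(CPM + 0.5), for the cluster genes in red and all other tested genes in grey. Dashed lines mark a 2-fold difference. Mir295 at 1.73 and Mir290a at 1.41 lie above the upper line, where other genes of low counts also lie.

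Set against all detected genes, Mir294 and Mir293 sat close to the middle and Mir292 below it. The 347 detected genes had a median of 264 CPM, with 177 above Mir294 and 169 below it. Mir293 had 184 above it and 162 below, and Mir292 had 212 above it and 134 below. Mir291b had 294 detected genes above it and 52 below. The genes next to Mir294 in level were Mir135b at 263 ± 0.820 CPM and Mir362 at 256 ± 145 CPM above it, and Mir758 at 231 ± 16.6 CPM and Mir874 at 229 ± 23.2 CPM below it (SD, n = 2 each). With 2 libraries of 1 group no pattern across conditions exists by which to rank genes for likeness.

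The other microRNA cluster known from pluripotent mouse cells, Mir302 and Mir367 on chromosome 3, was more abundant as a sum in both libraries. Most of its counts came from Mir302a, Mir302b and Mir302d. Mir367 had only 3 and 4 counts, or 0.897 and 2.52 CPM, in replicates 1 and 2. The 7 genes of the Mir290 to Mir295 cluster summed to 684 and 557 CPM, against 4444 and 3963 CPM for the 5 genes of the Mir302 cluster, in replicates 1 and 2. The ratio of these sums was 0.154 in replicate 1 and 0.140 in replicate 2, a mean of 0.147 ± 0.0095 (SD, n = 2). Leaving out genes with such a stretch of 20 bases in common with any other counted gene, which removes Mir291a and Mir291b on one side and Mir302a and Mir302b on the other, the mean ratio was 0.334. Mir294 at 232 CPM was near Mir302c at 193 ± 33.7 CPM and below Mir302d at 1533 ± 321 CPM (SD, n = 2). The ranges of Mir294 and Mir302c over the libraries overlapped, at 208 to 256 CPM and 169 to 217 CPM. Within each library, however, Mir294 was the higher of these genes, at 256 against 217 CPM in replicate 1 and 208 against 169 CPM in replicate 2.

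The sequences used here lack some mature products of the Mir302 genes, so other Mir302 genes can share a seed with the cluster too. Among the sequences held, products of Mir302b and Mir302d carry the same seed as those of Mir294, Mir295 and Mir291a. A product of Mir17 has the same bases shifted along by 1 position.
miR-302d-3p: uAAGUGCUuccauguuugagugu
miR-17-5p: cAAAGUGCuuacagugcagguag
Of 7 genes listed as related to Mir17, 6 have a product with the seed AAAGUGC, and Mir18 has none. These 6 genes summed to 130992 and 89228 CPM, led by Mir17 at 64155 ± 18563 CPM, Mir20a at 23783 ± 7709 CPM and Mir93 at 13403 ± 4006 CPM (SD, n = 2 each). Mir291b at 17.9 ± 3.29 CPM stood below Mir350 at 361 ± 43.5 CPM (SD, n = 2 each). The 5p product of Mir350 has the seed AAGUGCA, which Mir291b has on its 3p product. Arms are not separated in these counts, so none of these gene values is the level of a product with a given seed.

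**Figure D5:**
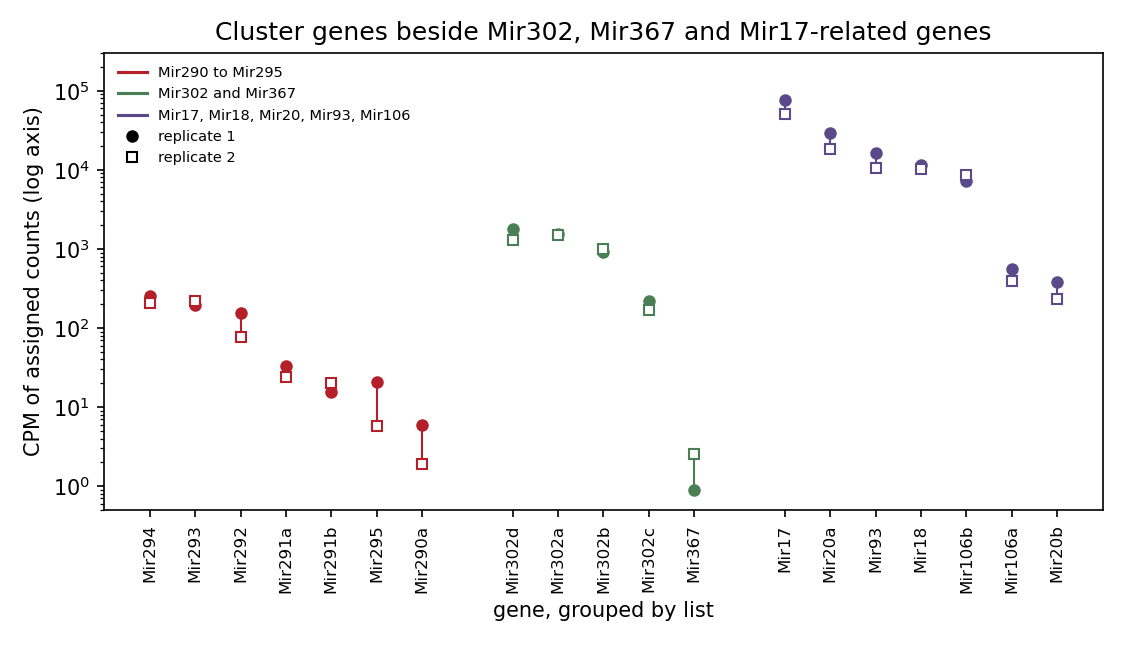
CPM on a log axis for the cluster genes, the Mir302 and Mir367 genes and 7 genes related to Mir17, ordered by mean within each list, with filled circles for replicate 1 and open squares for replicate 2. The cluster genes reach 256 CPM, below Mir302d at 1760 and 1306 CPM and Mir17 at 77281 and 51029 CPM. Mir302a and Mir302b lie above the cluster genes too, while Mir302c and Mir367 lie below Mir294 in both libraries.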

How the data were processed

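Small RNA was sequenced from 2 pools of day 11.5 mouse livers. The deposited files held raw counts of reads per microRNA gene in 3 columns (either strand, same strand, opposite strand), aligned to mm10 and counted on GENCODE M4, per the deposited description. Which aligner and counter made them is not given in the sources used here. The 4 summary classes naming no gene, 73.8 and 71.0% of reads in replicates 1 and 2, stayed out of totals. They include reads mapping to several places (22.0 and 22.6%). The count per 1000000 same-strand assigned counts (CPM) was computed here. Names and positions came from GENCODE M21 (same assembly), matching 1894 of 1973 genes by identifier. Replicates differed by far more than read sampling (chi-square per degree of freedom 294), so they were kept as 2 samples.

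Library sizes for the exact binomial test were scaled by the trimmed mean of M values, TMM (edgeR 4.0.16, R 4.3.3), with 0.5 added to each count for log2 ratios. DESeq2 1.42.0 gave alternative size factors. Python 3.11.15, scipy 1.17.1 and pandas 2.3.3 did the rest. No count test with residual degrees of freedom was possible in 1 group of 2. The named genes were every member, the Mir302 and Mir367 genes, genes sharing a seed with a member, genes related to Mir17, the neighbours of the top member in level, and marker lists. The members and lists were chosen with earlier results of these data known. The labels call the libraries biological replicates from separate samples of 1 strain. Intervals and floors cover counting error only, since no molecular identifiers are described.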

Additional observations from a re-analysis of the deposited data

How the results depend on the processing

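No paired analysis was possible because both libraries form a single group. The share of counts was 0.0170% with all reads as the denominator, by construction, against 0.0620% of assigned counts, and ran from 0.0557 to 0.0684% with either library left out. The ratio to the Mir302 and Mir367 genes was 0.334 without genes sharing at least 20 bases, against 0.147, since Mir302a and Mir302b then drop out. A minimum of 100 counts in both libraries left 3 genes detected, against 5. Scaling by total assigned counts called 2 cluster genes and edgeR's exact test at a set biological coefficient of variation of 0.2 called 0, against 1. In that edgeR test 2 cluster genes, Mir292 and Mir295, had an unadjusted p under 0.05, and 1 of all 454 tested genes was called. DESeq2 size factors, the unstranded column and no filter on low counts left 1 called gene, Mir295. No log2 ratio of a cluster gene changed sign under the alternatives run. Depth limits Mir290a and Mir295 most, with 3 and 9 counts in replicate 2.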
